A study of Homo sapiens with 36 samples.

Results

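Luminal and basal keratins are the 9 genes KRT8, KRT18, KRT19, KRT7, KRT80, KRT5, KRT15, KRT10 and KRT23, found by their symbols among the 61805 named genes of a table of RNA-seq read counts. The counts came from 36 libraries of human prostate cancer cells, in 12 groups of 3 libraries. LNCaP cells came from a lymph node metastasis of a prostate cancer and depend on androgen, and 42D cells descend from them and resist the antiandrogen enzalutamide. The series' title concerns loss of TRIM33. In 42D the labels give a line sgT33-5 and a line NT3. In LNCaP they give sgT33-5, sgT33-5_MC_C2 (C2 from here on), sgT33-5_MC_F2 (F2) and NT3. Each line was treated with 5 nM R1881, a synthetic androgen, or with the vehicle DMSO for 6 h, after 3 days in serum stripped of its hormones. The sgT33-5 lines were set against the NT3 line of the same cell line. The labels spell out neither name and do not say whether C2 and F2 are clones or whether replicates are separate cultures, so p-values measure only the spread between these libraries. The libraries are bulk samples, in which fewer cells expressing a keratin and less of its RNA per cell cannot be told apart.

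Keratins are the intermediate filament proteins of epithelial cells. They form filaments only as pairs of an acidic type I keratin (here KRT18, KRT19, KRT15, KRT10 and KRT23) and a basic type II keratin (here KRT8, KRT7, KRT5 and KRT80). In the prostate gland KRT8 and KRT18 mark the luminal cells, which secrete prostatic fluid and depend on the androgen receptor, while KRT5 and KRT15 mark the basal cells beneath them. KRT19 and KRT7 belong to simple and ductal epithelia, KRT10 to the differentiating layers of the epidermis, KRT80 is a type II keratin found in many epithelia, and KRT23 is a type I keratin of glandular epithelia.

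The type II genes lie together on chromosome 12 and most of the type I genes on chromosome 17, at the GRCh38 positions of the deposited table. KRT8 (ENSG00000170421) spans chromosome 12, positions 52897187 to 52949954, on the minus strand, and its far end overlaps KRT18 (ENSG00000111057, positions 52948871 to 52952906), a type I gene that lies beside its partner on the plus strand. KRT80 (ENSG00000167767, 52168996 to 52192014), KRT7 (ENSG00000135480, 52232520 to 52252186) and KRT5 (ENSG00000186081, 52514575 to 52520530) lie on the same chromosome. Chromosome 17 holds KRT10 (ENSG00000186395, 40818117 to 40822614), KRT23 (ENSG00000108244, 40922700 to 40937646), KRT15 (ENSG00000171346, 41513745 to 41522529) and KRT19 (ENSG00000171345, 41523617 to 41528308). The RefSeq promoter table for GRCh38.p14 held windows from 250 bases before to 50 bases after the start for 3 of the 9 genes. They are shown because KRT8 is the most androgen-responsive abundant member, KRT5 the basal keratin that was nearly silent, and KRT10 the expressed member called in no comparison of treatments or guides. The KRT8 window is chr12:52926420-52926719, the KRT5 window chr12:52520345-52520644 and the KRT10 window chr17:40822565-40822864, all read on the minus strand. Capitals mark matches to the motifs searched.
KRT8: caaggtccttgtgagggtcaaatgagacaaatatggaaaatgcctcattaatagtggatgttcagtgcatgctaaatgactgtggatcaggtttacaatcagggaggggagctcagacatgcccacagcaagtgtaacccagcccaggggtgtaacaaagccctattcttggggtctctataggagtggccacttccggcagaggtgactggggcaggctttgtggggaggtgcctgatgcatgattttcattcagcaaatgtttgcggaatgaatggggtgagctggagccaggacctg
KRT5: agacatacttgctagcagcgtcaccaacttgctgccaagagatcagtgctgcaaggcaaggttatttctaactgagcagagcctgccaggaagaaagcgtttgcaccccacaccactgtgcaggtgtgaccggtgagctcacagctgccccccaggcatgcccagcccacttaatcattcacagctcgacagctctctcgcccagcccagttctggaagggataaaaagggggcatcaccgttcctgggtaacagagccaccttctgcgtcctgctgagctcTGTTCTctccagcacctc
KRT10: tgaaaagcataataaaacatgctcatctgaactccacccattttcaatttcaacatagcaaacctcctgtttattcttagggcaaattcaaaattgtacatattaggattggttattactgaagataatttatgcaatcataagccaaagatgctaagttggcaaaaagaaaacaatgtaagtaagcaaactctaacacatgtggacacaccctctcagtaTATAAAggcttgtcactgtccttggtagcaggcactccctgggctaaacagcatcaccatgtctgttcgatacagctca
Both strands were searched for AGAACA, the core hexamer of androgen response elements, for the TATA-box word TATAAA, for GGGCGG as found in GC boxes, and for TGANTCA, the site of AP-1. The KRT8 window, which is at one of 17 annotated transcript starts of the gene, held none of them. The KRT5 window held AGAACA on the minus strand, written TGTTCT above, 33 bases after the start, and the KRT10 window held TATAAA at position -29. Of 35116 promoter windows in the table, 14.8% held AGAACA, 11.5% TATAAA, 45.0% GGGCGG and 7.71% TGANTCA.

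KRT8 and KRT18 have many processed pseudogenes, so reads could be shared between copies. Of the 51-base stretches of the KRT8 coding sequence, as long as the reads, 47.2% also occurred in transcripts of other genes in the GENCODE v29 annotation, and for KRT18 the share was 56.9%. Of the 705 shared stretches of KRT18, 325 occurred, on either strand, in annotated transcripts of the overlapping KRT8 gene, and adding pseudogene counts does not bear on those. For the other 7 members the share ran from 0.47% in KRT10 to 13.4% in KRT7. The stretch of KRT18 coding bases 926 to 976 was found in 9 KRT18 pseudogenes. It is shown as an example of sequence that a single 51-base read cannot place by itself. The reads were paired, and these shares do not consider a mate outside the stretch.
KRT18: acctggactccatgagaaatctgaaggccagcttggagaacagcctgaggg
The deposited counts of the 51 KRT8 pseudogene rows summed to 1.83% to 6.41% of the KRT8 count in the same library, and those of the 67 KRT18 pseudogene rows to 0.274% to 0.968% of the KRT18 count. Adding these counts to the parent gene left all calls of KRT8 and KRT18 given below in place. Counted over the shorter protein of each pair, KRT8 was identical to KRT7 at 63.8% of residues, to KRT5 at 63.6% and to KRT80 at 42.7%, and KRT19 to KRT15 at 66.0% and to KRT18 at 47.2%.

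The libraries held 13900744 to 19793268 counts. TRIM33 RNA stood at 67.8% to 70.1% of the NT3 level in 42D sgT33-5 and at 33.5% to 51.2% in the 3 LNCaP lines with sgT33-5 in their names, lower by the test in all 8 comparisons. Of 15 basal markers, KRT5, KRT15, KRT17 and TP63 averaged under 1 count per library in both cell lines, and KRT14 summed to 27 counts in 42D and 57 in LNCaP, while 6 of the 15 in 42D and 5 in LNCaP reached 1 CPM (counts scaled to library size) in a group. The summed basal markers ranged from 125 to 179.8 CPM in 42D and from 89.6 to 136 CPM in LNCaP, and the summed luminal markers ranged from 4145 to 6887 CPM in 42D and from 3100.2 to 9594 CPM in LNCaP. The share of mitochondrial counts was 2.94% to 4.59% in 42D and 4.16% to 6.66% in LNCaP, apart from 2 LNCaP sgT33-5 libraries, DMSO replicate 3 and R1881 replicate 1, at 2.14% and 2.4%. Fits without both of them changed 1 call of a keratin, KRT8 in F2 against NT3 with DMSO.

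KRT8 and KRT18 made up almost all of the keratin RNA, KRT10 followed far behind, and KRT80 and KRT19 were low. In CPM, scaled by edgeR's TMM factors, the lowest, median and highest KRT8 level was 223, 343 and 512 over the 12 libraries of 42D and 256, 338 and 515 over the 24 of LNCaP. KRT18 had 249.6, 320.3 and 404 CPM in 42D and 329.5, 375 and 469 CPM in LNCaP. KRT10 had 19.3, 21.6 and 22.8 CPM in 42D, against 21.7, 23.97 and 26.9 CPM in LNCaP. KRT10 thus varied far less between libraries than the luminal pair. KRT80 had 1.45, 3.23 and 6.69 CPM in 42D, against 1.63, 2.88 and 5.51 CPM in LNCaP. KRT19 had 0.181, 0.514 and 1.3995 CPM in 42D, against 0.421, 1.99 and 3.88 CPM in LNCaP. These 5 genes passed the filter on low counts and were tested, and the other 4 members did not pass it. Per kilobase of the principal transcript, the median KRT8 level was 196 CPM in 42D and 193 CPM in LNCaP, and the median KRT18 level was 226 and 264 CPM. On that per-length scale KRT8 stood 0.868 times as high as KRT18 in 42D and 0.730 times in LNCaP, 19.2 and 17.1 times as high as KRT10, 234 and 259 times as high as KRT80, and 529.7 and 135 times as high as KRT19.

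**Figure D1:**
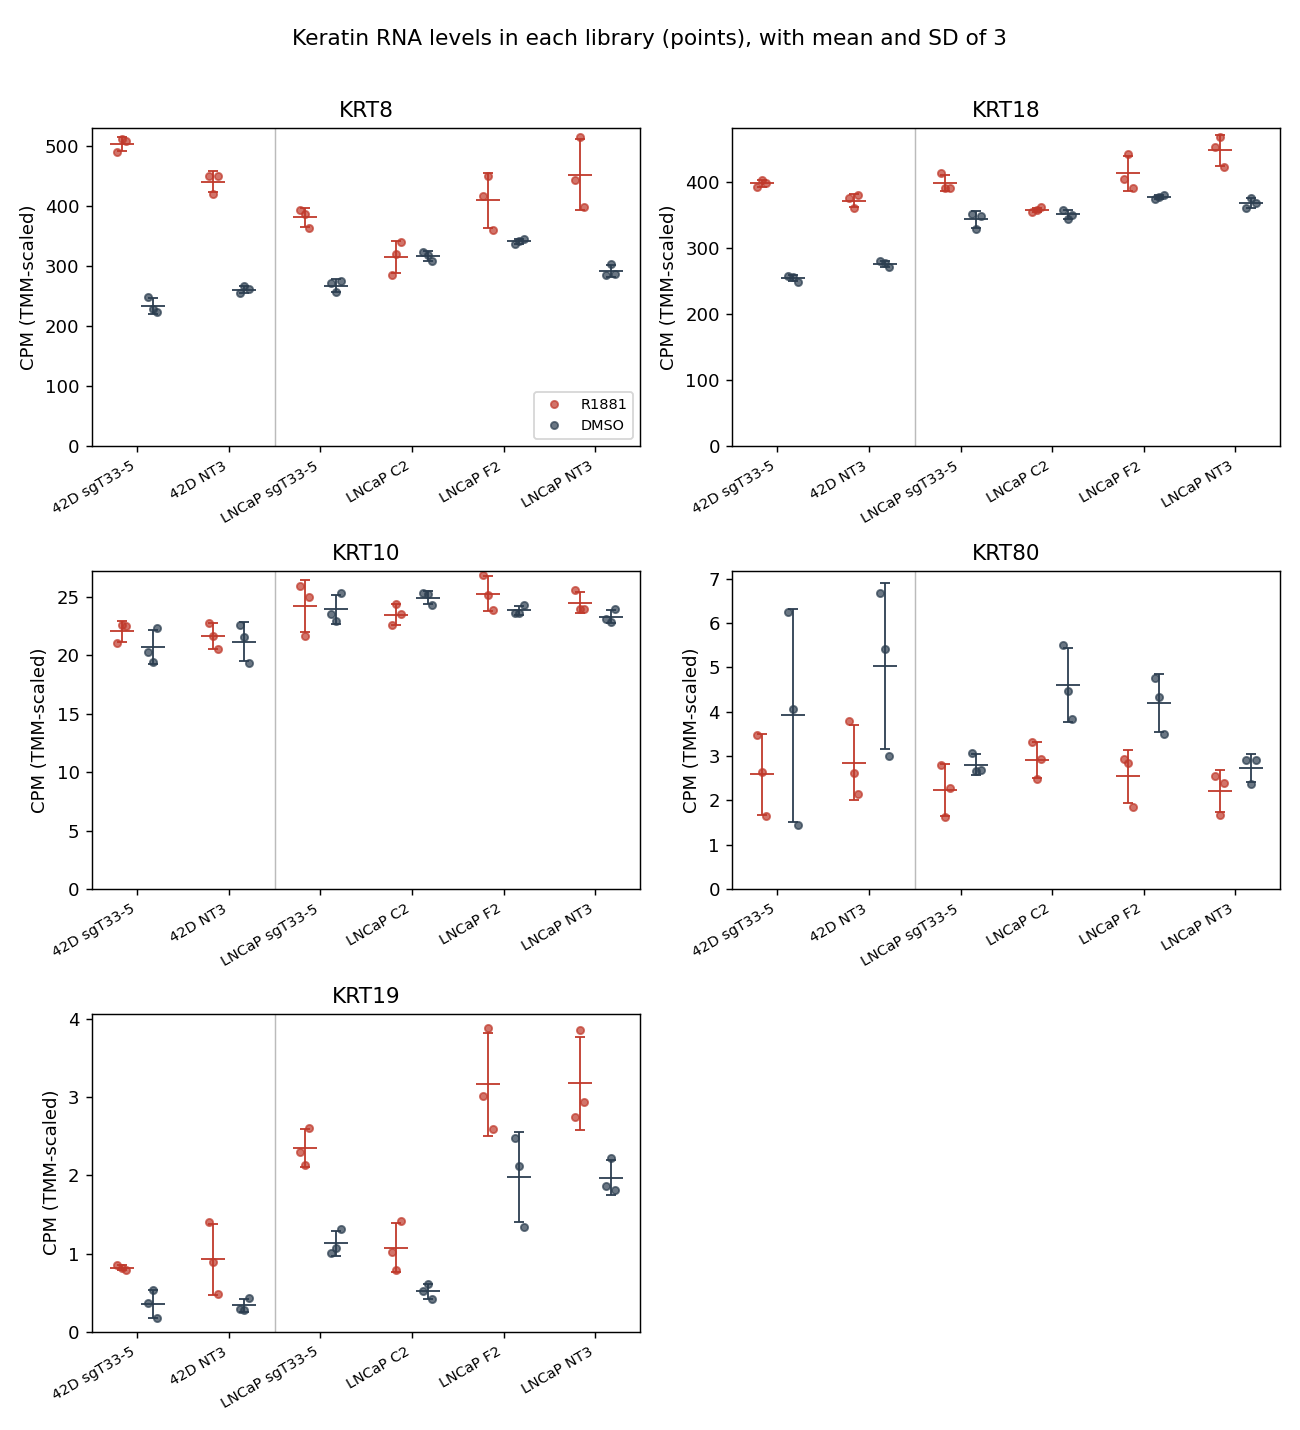
Levels in TMM-scaled CPM of the 5 tested keratins in each library (points), with the mean and SD of 3 libraries, for R1881 (red) and DMSO (dark) in the 2 lines of 42D (left of the grey line) and the 4 of LNCaP. KRT8 in 42D runs from 420.6 to 512 CPM with R1881, against 223 to 266 CPM with DMSO, while KRT10 lies between 19.3 and 26.9 CPM in every library.

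Ordered by group mean, KRT8 was highest in 42D sgT33-5 with R1881 and lowest in 42D sgT33-5 with DMSO, so both ends of the order were the same line. Next to the top came LNCaP NT3, 42D NT3, F2 and LNCaP sgT33-5, all with R1881, and then F2 with DMSO, C2 with DMSO, C2 with R1881, LNCaP NT3, LNCaP sgT33-5 and 42D NT3 with DMSO. In 7 of the 11 neighbouring pairs of that order the libraries overlapped. KRT18 ran from LNCaP NT3, F2 and LNCaP sgT33-5 with R1881 down to LNCaP sgT33-5, 42D NT3 and 42D sgT33-5 with DMSO, with overlap in 8 of 11 neighbouring pairs. KRT19 was highest in LNCaP NT3 and F2 with R1881 and lowest in C2 and both 42D lines with DMSO (9 of 11 pairs overlapped). For KRT80 all 11 pairs overlapped. All 8 LNCaP groups averaged more KRT10 than any of the 4 groups of 42D, and 10 of 11 neighbouring pairs overlapped.

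The first comparison asked how 6 h of R1881 moved the keratins in each line. KRT8, KRT18 and KRT19 rose with R1881 in both 42D lines and in LNCaP NT3 and sgT33-5. KRT80 passed the test as lower in C2 and F2, and in both 42D lines only with the replicate number as a block. KRT10 passed the test in no line. Genes were called at an adjusted p below 0.05 in edgeR's quasi-likelihood F test, with Benjamini-Hochberg adjustment over all genes tested. Of the 5 tested members, 3 were called in 42D sgT33-5, all higher, where 27.3% of all genes were called, and 3 in 42D NT3, all higher, where 25.3% were called (13.9% higher and 11.4% lower). In LNCaP, 3 were called in sgT33-5, all higher (12.5% of all genes), and 3 in NT3, all higher (13.2% of all genes, 8% higher and 5.15% lower). F2 had 2 members higher and 1 lower (10.4% of all genes, 1611, or 2455 with the replicate number as a block, where KRT18 passed too, adjusted p = 0.0441), and C2 had 1 lower (5.66% of all genes).

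**Figure D2:**
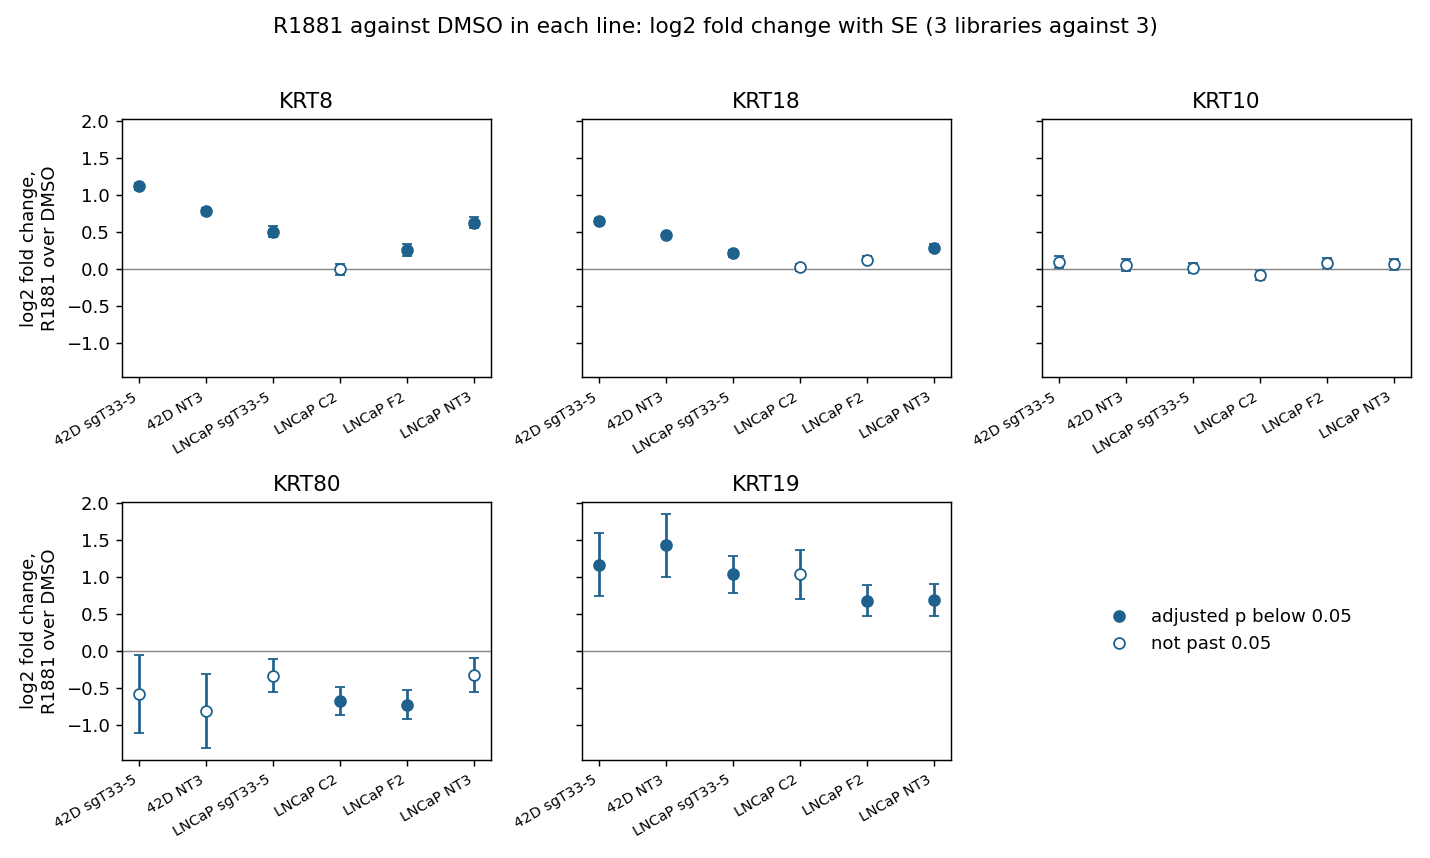
Log2 fold change of R1881 over DMSO with its SE for the 5 tested keratins in each of the 6 lines (3 libraries against 3). Filled points passed an adjusted p of 0.05. KRT8 ranges from 1.11 in 42D sgT33-5 to -0.01 in LNCaP C2, and all KRT80 points lie below 0.

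KRT8, the type II keratin of luminal cells, rose 2.16-fold with R1881 in 42D sgT33-5 and 1.72-fold in 42D NT3. In 42D sgT33-5 it had 490.3, 512 and 508 CPM with R1881, against 248.7, 228 and 223 CPM with DMSO. In 42D NT3 it had 450.2, 420.6 and 451 CPM with R1881, against 255, 266 and 261 CPM with DMSO. The groups were far apart in both lines, with log2 fold changes of 1.11 (SE 0.046, adjusted p = 2.39e-14) in sgT33-5 and 0.78 (SE 0.046, adjusted p = 1.28e-11) in NT3. LNCaP NT3 libraries had 444, 515 and 398 CPM of KRT8 with R1881, against 284.5, 303 and 287 CPM with DMSO. LNCaP sgT33-5 libraries had 393, 387 and 363 CPM with R1881, against 272, 256 and 275 CPM with DMSO. Here too the groups did not overlap, with log2 fold changes of 0.62 (SE 0.077, 1.54-fold, adjusted p = 1.13e-06) in NT3 and 0.50 (SE 0.077, 1.41-fold, adjusted p = 3.84e-05) in sgT33-5.

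In C2 no KRT8 response was detected, and in F2 the response was small. C2 had 286, 319 and 339.9 CPM of KRT8 with R1881, against 324, 318 and 308 CPM with DMSO, and the groups overlapped (log2 -0.01, adjusted p = 0.971). F2 had 417, 451 and 359.8 CPM with R1881, against 337, 342 and 344 CPM with DMSO. Every F2 library with R1881 was above every one with DMSO, and KRT8 rose by 0.25 on the log2 scale (SE 0.077, 1.19-fold, adjusted p = 0.0345). The KRT8 call in F2 was lost without DMSO replicate 1 (adjusted p = 0.101), DMSO replicate 2 (0.082), DMSO replicate 3 (0.0823), R1881 replicate 1 (0.0856) or R1881 replicate 2 (0.205), and when only the F2 libraries were fitted (0.0757), and over all alternatives its adjusted p ran from 0.000239 to 0.205. The difference between responses was tested as an interaction. KRT8 responded less in C2 than in LNCaP NT3, with a log2 difference of -0.64 between the responses (SE 0.11, adjusted p = 0.00225), and this call held in all 19 alternative fits. For KRT18 the same difference was -0.25 (adjusted p = 0.082, or 0.0344 with DESeq2). That interaction called 0.689% of all genes and 1 of the 5 members.

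KRT18, the type I partner of KRT8, rose with R1881 in 42D and in LNCaP NT3 and sgT33-5, with smaller fold changes than KRT8. In 42D sgT33-5 it had 393, 404 and 399 CPM with R1881, against 258, 257 and 249.6 CPM with DMSO. In 42D NT3 it had 376, 360.45 and 380.4 CPM with R1881, against 280.1, 277 and 272 CPM with DMSO. No library with R1881 was as low as any with DMSO, and KRT18 rose by 0.65 (SE 0.038, 1.57-fold, adjusted p = 1.14e-11) and 0.45 (SE 0.038, 1.37-fold, adjusted p = 5.54e-09) on the log2 scale. In LNCaP NT3 it had 453, 469 and 423 CPM with R1881, against 362, 376 and 369 CPM with DMSO. LNCaP sgT33-5 had 414, 391.9 and 391.96 CPM with R1881, against 353, 329.5 and 349 CPM with DMSO. KRT18 rose in both, by 0.28 (SE 0.047, 1.21-fold, adjusted p = 8.3e-05) and 0.21 (1.16-fold, adjusted p = 0.00267). C2 had 355, 358 and 362 CPM with R1881, against 358, 345 and 351 CPM with DMSO, and the groups overlapped (log2 0.02, adjusted p = 0.904). F2 had 405, 443 and 391.8 CPM with R1881, against 375, 377 and 380.1 CPM with DMSO. These F2 libraries did not overlap, and the log2 difference of 0.12 had an adjusted p of 0.111, of 0.0441 with the replicate number as a block and of 0.0397 without R1881 replicate 3.

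The ratio of KRT8 to KRT18 counts followed from these unequal responses. It was 1.26 ± 0.0129 with R1881 and 0.915 ± 0.0425 with DMSO in 42D sgT33-5 (SD, n = 3 each), and 1.18 ± 0.0150 and 0.944 ± 0.0294 in 42D NT3 with R1881 and DMSO. LNCaP sgT33-5 had 0.955 ± 0.0308 with R1881 and 0.779 ± 0.00819 with DMSO, and LNCaP NT3 had 1.01 ± 0.0832 with R1881 and 0.791 ± 0.0145 with DMSO. In F2 the ratio was 0.989 ± 0.0611 with R1881 and 0.904 ± 0.00402 with DMSO, and in C2 it was 0.878 ± 0.0686 with R1881 and 0.901 ± 0.0217 with DMSO. The ratio was higher in every R1881 library than in every DMSO library of 5 lines, and the groups overlapped in C2. The two-sided exact permutation p was 0.1 in each of those 5 lines (0.12 after Benjamini-Hochberg adjustment over the 6 tests) and 0.8 in C2, and 3 libraries against 3 cannot go below 0.1.

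**Figure D3:**
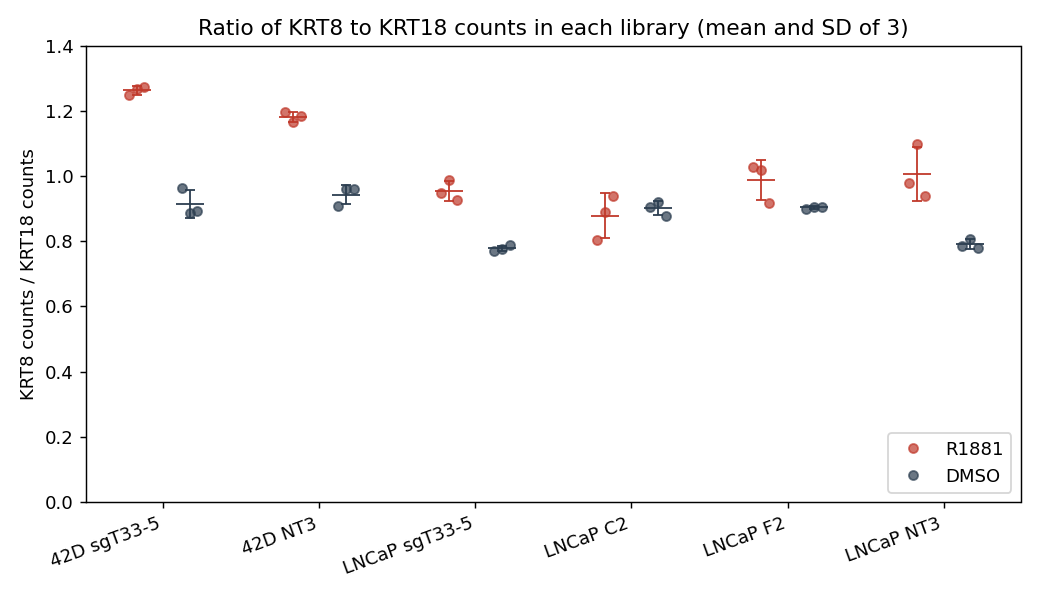
Ratio of KRT8 to KRT18 counts (no unit) in each library (points), with mean and SD of 3, for R1881 (red) and DMSO (dark). With R1881 the 42D libraries lie between 1.17 and 1.27, against 0.887 to 0.964 with DMSO, while the C2 groups overlap.

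KRT19, a type I keratin of simple epithelia, had a higher mean with R1881 than with DMSO in every line, at low levels. LNCaP sgT33-5 had 2.30, 2.135 and 2.605 CPM with R1881, against 1.004, 1.08 and 1.31 CPM with DMSO, without overlap (log2 1.04, SE 0.25, adjusted p = 0.00552), and kept its call under every alternative. LNCaP NT3 had 2.74, 3.85 and 2.94 CPM with R1881, against 1.87, 2.22 and 1.81 CPM with DMSO (log2 0.69, SE 0.22, adjusted p = 0.0371). These groups did not overlap either, but the call was lost without DMSO replicate 1 (adjusted p = 0.118), DMSO replicate 3 (0.124), R1881 replicate 2 (0.21) or R1881 replicate 3 (0.0549), with DESeq2 (0.0783) and without the filter on low counts (0.0536), with a range of 0.0208 to 0.21 over all alternatives. F2 had 3.01, 3.88 and 2.59 CPM with R1881, against 2.48, 2.11 and 1.35 CPM with DMSO (log2 0.68, SE 0.21, adjusted p = 0.0368). The call in F2 was lost without DMSO replicate 2 (0.0647), DMSO replicate 3 (0.25) or R1881 replicate 2 (0.226), with DESeq2 (0.0799) and with only the F2 libraries (0.145), and its adjusted p ran from 0.0175 to 0.25. C2 had 1.02, 0.793 and 1.41 CPM of KRT19 with R1881, against 0.517, 0.613 and 0.421 CPM with DMSO. The C2 groups did not overlap, but the log2 difference of 1.04 (SE 0.33) did not pass the test (adjusted p = 0.061). It passed without R1881 replicate 2 (0.0406).

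In 42D the KRT19 counts were smaller still. 42D NT3 had 1.3995, 0.893 and 0.490 CPM with R1881, against 0.299, 0.278 and 0.436 CPM with DMSO (log2 1.43, SE 0.43, adjusted p = 0.0163). 42D sgT33-5 had 0.853, 0.817 and 0.791 CPM with R1881, against 0.367, 0.537 and 0.181 CPM with DMSO (log2 1.17, SE 0.43, adjusted p = 0.0475). Neither line's groups overlapped. The 42D NT3 call was lost without DMSO replicate 1 (adjusted p = 0.0651), DMSO replicate 2 (0.055) or R1881 replicate 1 (0.118), within a range of 0.00406 to 0.118. The 42D sgT33-5 call was lost without DMSO replicate 1 (0.0964), DMSO replicate 3 (0.19) or R1881 replicate 1 (0.104), 2 (0.0959) or 3 (0.08), with DESeq2 (0.116) and with pseudogene counts added (0.0512), within a range of 0.0265 to 0.19.

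KRT80, a type II keratin, passed the test as lower with R1881 in C2 and F2, and its log2 difference was below 0 in all 6 lines. C2 had 3.32, 2.49 and 2.92 CPM with R1881, against 5.51, 4.46 and 3.85 CPM with DMSO, and F2 had 2.94, 2.84 and 1.85 CPM with R1881, against 4.77, 4.33 and 3.50 CPM with DMSO. The groups did not overlap in either line, and KRT80 fell by 0.67 in C2 (SE 0.19, adjusted p = 0.0343) and by 0.72 in F2 (SE 0.20, adjusted p = 0.0166) on the log2 scale. The C2 call was lost without DMSO replicate 1 (adjusted p = 0.263), DMSO replicate 2 (0.0938), R1881 replicate 2 (0.168) or R1881 replicate 3 (0.0968), with a range of 0.00357 to 0.263 over the alternatives. The F2 call was lost without DMSO replicate 1 (0.0874), DMSO replicate 2 (0.06) or R1881 replicate 3 (0.141), or with only the F2 libraries (0.0593), with a range of 0.00169 to 0.141. LNCaP sgT33-5 had 2.81, 1.63 and 2.29 CPM with R1881, against 3.08, 2.66 and 2.68 CPM with DMSO (log2 -0.33, adjusted p = 0.397). LNCaP NT3 had 2.55, 1.66 and 2.40 CPM with R1881, against 2.92, 2.37 and 2.91 CPM with DMSO (log2 -0.32, adjusted p = 0.472). Both pairs of groups overlapped.

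In 42D, KRT80 followed the replicate number in every group. 42D sgT33-5 had 3.47, 2.64 and 1.65 CPM with R1881, against 6.24, 4.06 and 1.45 CPM with DMSO, in replicates 1, 2 and 3. 42D NT3 had 3.80, 2.62 and 2.14 CPM with R1881, against 6.69, 5.42 and 2.99 CPM with DMSO. Replicate 1 was the highest and replicate 3 the lowest in all 4 groups, and the groups overlapped in both lines. Without the replicate number the log2 differences were -0.58 (SE 0.53, adjusted p = 0.486) in sgT33-5 and -0.81 (SE 0.50, adjusted p = 0.301) in NT3. With the replicate number as a block, the sgT33-5 difference of -0.58 had an adjusted p of 0.0143. The NT3 difference of -0.79 passed with the block too (adjusted p = 0.000528). Same-numbered libraries were not taken as paired in NT3, where the lowest correlation of a pair was 0.0995, just under the cut of 0.1. The labels do not say what a replicate number marks.

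**Figure D4:**
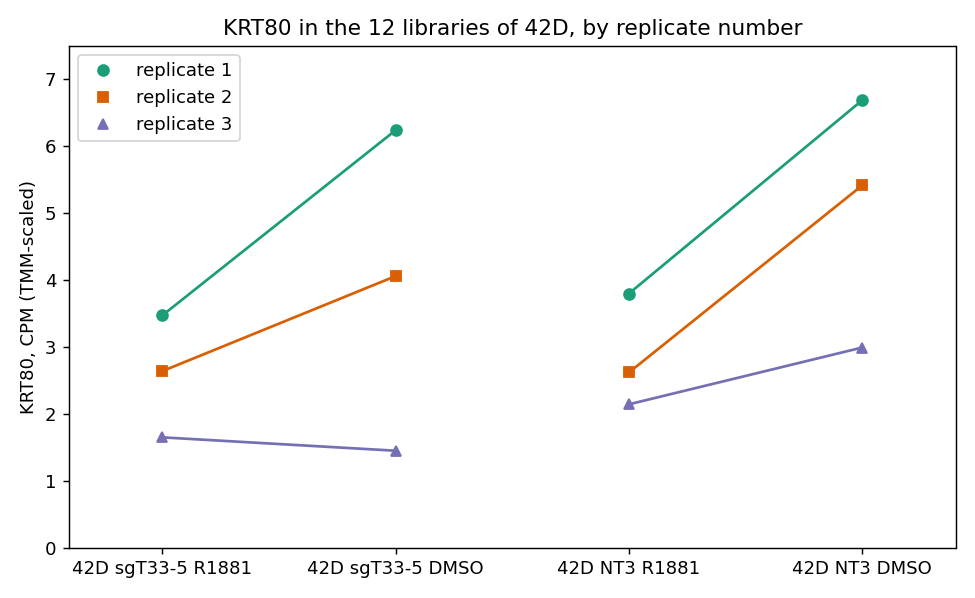
KRT80 in TMM-scaled CPM in the 12 libraries of 42D, with lines joining R1881 and DMSO libraries of one replicate number within a line. Replicate 1 is highest and replicate 3 lowest in each group, and DMSO lies above R1881 in all pairs but replicate 3 of sgT33-5 (1.65 CPM with R1881 and 1.45 CPM with DMSO).

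KRT10, the epidermal type I keratin, ranged from 20.5 to 22.8 CPM with R1881 and from 19.3 to 22.6 CPM with DMSO in 42D, and from 21.7 to 26.9 CPM with R1881 and 22.9 to 25.3 CPM with DMSO in LNCaP. Its log2 differences between R1881 and DMSO ran from -0.09 to 0.09 over the 6 lines (adjusted p from 0.429 to 0.972). KRT10 is overlapped by KRT10-AS1, whose level was 14.3 to 14.9 CPM in the groups of 42D and 38.5 to 43.1 CPM in those of LNCaP. The library kit keeps strand, but whether the counting used it is not given in the sources used here, so reads of these overlapping genes, and of KRT8 and KRT18 where they overlap, may not be fully separated.

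The other 4 members were at or near 0. KRT23 had 0 counts in all 36 libraries, which allows up to 3 counts, or 0.151 to 0.215 CPM, per library. KRT5 had 1 count in 1 library, and KRT15, the other basal keratin, had 9 counts spread over 8 libraries. KRT7, a type II keratin of ductal epithelia, summed to 49 counts over the 12 libraries of 42D and 21 over the 24 of LNCaP. 42D NT3 had 2, 3 and 2 counts of KRT7 with R1881, against 10, 6 and 4 with DMSO, while all 6 libraries of LNCaP NT3 had 0. With DMSO, 42D NT3 averaged 0.421 CPM of KRT7, at least 2.16-fold higher than LNCaP NT3 at the limit of 3 counts per library (0.195 CPM).

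The second comparison asked how the lines named for sgT33-5 differed from NT3. In edgeR's filtered fits with no library left out and no replicate block, no tested keratin passed in 42D sgT33-5 or LNCaP sgT33-5. Some alternative fits called KRT8 or KRT18 there, as given below. C2 had less KRT19 with either treatment and less KRT8 and KRT18 with R1881. In 42D sgT33-5 against NT3, 0 of 5 were called with R1881, where 0.513% of all genes were, and 0 with DMSO, where 1.13% were. At an unadjusted p below 0.05 the counts were 1273 genes with R1881 and 1622 with DMSO. In LNCaP sgT33-5 against NT3, 0 of 5 were called with R1881 (3.04% of all genes, 472, or 1264 with the replicate number as a block, which called KRT18 at an adjusted p of 0.00973) and 0 with DMSO (1.4% of all genes). C2 had 3 of 5 lower with R1881 (23% of all genes), and 1 higher and 1 lower with DMSO (18.2% of all genes, 8.53% higher and 9.63% lower). F2 had 0 of 5 with R1881 (13.4% of all genes) and 2 higher with DMSO (16.7% of all genes, 8.94% higher and 7.73% lower, 2587 in all, or 3926 with the block).

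**Figure D5:**
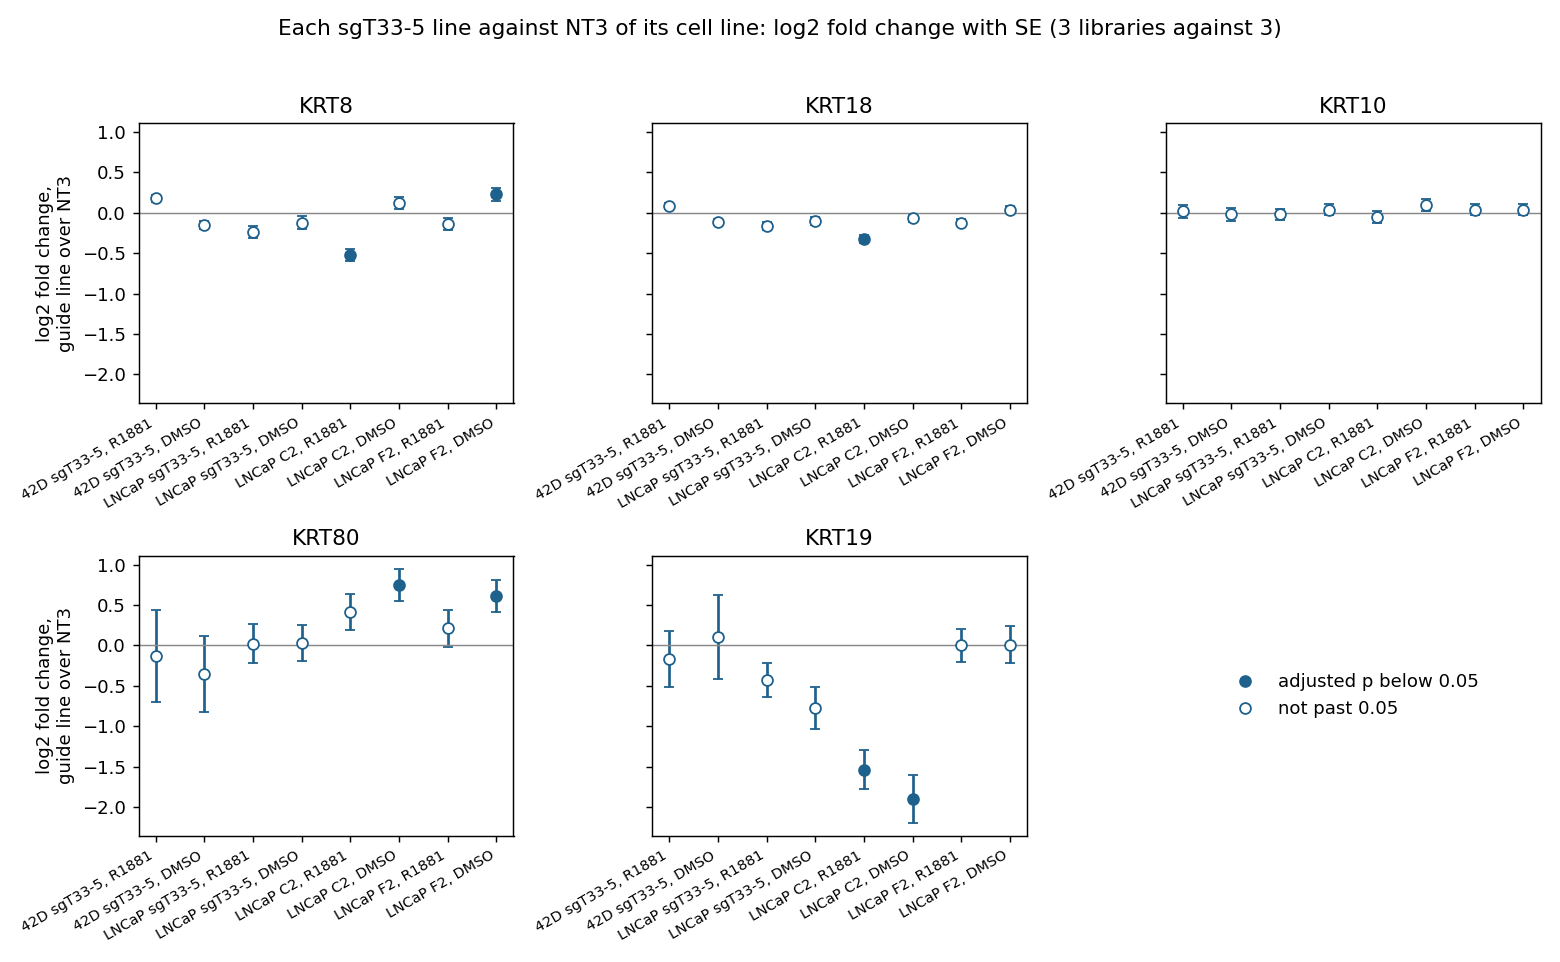
Log2 fold change of each line named for sgT33-5 over NT3 of its cell line, with SE, for the 5 tested keratins under R1881 and DMSO (3 libraries against 3). Filled points passed an adjusted p of 0.05. KRT19 lies at -1.54 and -1.90 in C2 and near 0 in F2.

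KRT19 in C2 was the largest difference among the 5 tested members in the lines named for sgT33-5. Set against the NT3 libraries given above, it was lower, with a log2 difference of -1.54 with R1881 (SE 0.24, adjusted p = 2.11e-05) and of -1.90 with DMSO (SE 0.30, adjusted p = 5.18e-05), and no C2 library reached the lowest NT3 library under the same treatment. C2 also had less KRT8 (log2 -0.52, SE 0.077, adjusted p = 1.91e-05) and less KRT18 (log2 -0.32, SE 0.047, adjusted p = 1.19e-05) with R1881, where its highest libraries, 339.9 CPM of KRT8 and 362 CPM of KRT18, lay below the lowest NT3 libraries of 398 and 423 CPM. With DMSO the C2 and NT3 lines differed in KRT8 by 0.12 (adjusted p = 0.299). KRT80 was higher in C2 than in NT3 with DMSO (log2 0.75, SE 0.20, adjusted p = 0.00904), a call lost without C2 replicate 1 (0.076) or NT3 replicate 2 (0.0507). With R1881 the KRT80 difference of 0.41 did not pass (adjusted p = 0.193).

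In F2 the KRT19 values overlapped those of NT3 under both treatments. With DMSO, F2 had more KRT80 than NT3 (log2 0.61, SE 0.20, adjusted p = 0.0365), a call lost without F2 replicate 1 (0.136) or 2 (0.091) or NT3 replicate 1 (0.0787), 2 (0.135) or 3 (0.0578), and more KRT8 (log2 0.23, adjusted p = 0.0438). The KRT8 call was lost without any 1 of the 6 libraries, with adjusted p from 0.0631 to 0.159, and when the 2 libraries lowest in mitochondrial counts were left out (0.0567). With R1881 the F2 differences were -0.14 for KRT8 (adjusted p = 0.235) and -0.12 for KRT18 (adjusted p = 0.095), and the KRT18 difference passed without F2 replicate 2 (0.0233).

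C2 and F2 were also set against each other. C2 had less KRT19 than F2 with R1881 (log2 -1.54, adjusted p = 1.79e-05) and with DMSO (log2 -1.90, SE 0.29, adjusted p = 2.9e-05), and less KRT8 (log2 -0.37, adjusted p = 0.000976) and KRT18 (log2 -0.20, adjusted p = 0.00287) with R1881. In all, 3 of 5 members were lower with R1881, where 21% of all genes were called, and 1 with DMSO, where 18.1% were. The C2 and F2 comparisons with NT3 share the same NT3 libraries.

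In LNCaP sgT33-5 the differences from NT3 were -0.24 for KRT8 (adjusted p = 0.0894), -0.16 for KRT18 (0.0517) and -0.43 for KRT19 (0.323) with R1881, and -0.12 (0.559), -0.10 (0.397) and -0.78 (0.156) with DMSO. The KRT18 difference with R1881 passed with the replicate number as a block (adjusted p = 0.00973), and both KRT8 (0.0217) and KRT18 (0.0304) passed without NT3 R1881 replicate 3. DESeq2 called KRT18 there (0.0179), and a fit without the filter on low counts called KRT8 (0.00294). In 42D the sgT33-5 difference in KRT8 was 0.18 with R1881 (adjusted p = 0.0859) and -0.15 with DMSO (0.142). The KRT8 difference passed without the filter under R1881 (0.00195) and DMSO (0.0409), and with DESeq2 under R1881 (0.0241). It also passed with the replicate block under either treatment, although same-numbered libraries were not taken as paired there. The KRT18 difference in 42D sgT33-5 with R1881 was 0.09 (adjusted p = 0.531).

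The effect of sgT33-5 with R1881 differed between the cell lines for the luminal pair. It was higher in 42D than in LNCaP by 0.44 on the log2 scale for KRT8 (SE 0.097, adjusted p = 0.00992) and by 0.27 for KRT18 (SE 0.060, adjusted p = 0.0113), 2 of 5 members where 1.32% of all genes were called. The KRT8 call was lost without 42D NT3 replicate 2 (0.0521), LNCaP sgT33-5 replicate 3 (0.0561) or LNCaP NT3 replicate 2 (0.073), and with only the libraries compared (0.0507). The KRT18 call was lost without 42D sgT33-5 replicate 2 (0.06), 42D NT3 replicate 2 (0.0757), LNCaP sgT33-5 replicate 2 (0.0602) or 3 (0.0575), or LNCaP NT3 replicate 1 (0.0612) or 2 (0.072), all with R1881, and without the filter (0.121) or with only the libraries compared (0.142). With DMSO 0 of 5 members were called, where 0.797% of all genes were. TRIM33 itself differed in the same contrast, being less reduced in 42D by 0.57 with R1881 (adjusted p = 0.00054), and its part in the keratin difference was not tested.

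Within 42D, KRT8 responded more to R1881 in sgT33-5 than in NT3, by 0.34 on the log2 scale (SE 0.065, adjusted p = 0.0422), 1 of 5 members where 0.123% of all genes were called. Leaving out 1 library ended that call for 9 of the 12 libraries, namely all but NT3 R1881 replicate 1 and sgT33-5 replicate 1 of either treatment, with adjusted p from 0.0511 to 0.161. The responses of 42D NT3 and LNCaP NT3 differed by 0.12 for KRT8 (adjusted p = 0.658) and 0.15 for KRT18 (adjusted p = 0.219), with 0 of 5 members called and 3.85% of all genes. For the response in LNCaP sgT33-5 against NT3, 0% of all genes were called, while 1206 had an unadjusted p below 0.05 and DESeq2 called 0. For F2 against NT3 it was also 0%, with 454 genes at an unadjusted p below 0.05 and 6 called by DESeq2. The KRT8 responses there differed by -0.12 (adjusted p = 0.804) in sgT33-5 and -0.37 (adjusted p = 0.787, or 0.0113 without the filter) in F2.

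The last comparison set 42D NT3 against LNCaP NT3. KRT19 and KRT18 were lower in 42D under both treatments, and KRT80 was higher with DMSO. With R1881, KRT19 differed by -1.78 on the log2 scale (adjusted p = 2.39e-07), KRT18 by -0.27 (adjusted p = 8.64e-07) and KRT10 by -0.18 (adjusted p = 0.0295), 3 of 5 members lower where 68.9% of all genes were called. With DMSO, KRT19 differed by -2.50 (SE 0.35, adjusted p = 1.06e-07), KRT18 by -0.42 (SE 0.043, adjusted p = 8.84e-11), KRT8 by -0.16 (SE 0.070, adjusted p = 0.0393) and KRT80 by 0.87 (SE 0.33, adjusted p = 0.0209). That was 1 member higher and 3 lower, where 68.1% of all genes were called, 34.8% higher and 33.3% lower, so the share of keratins called is near the background here. No 42D library of KRT18 or KRT19 reached the lowest LNCaP NT3 library under the same treatment. KRT8 with R1881 differed by -0.04 (adjusted p = 0.637).

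Some of these calls were lost when any of several single libraries was left out. The KRT8 call with DMSO was lost without 42D NT3 replicate 1 (0.0893) or 3 (0.0915) or LNCaP NT3 replicate 2 (0.166) or 3 (0.0678), with RLE scaling (0.0503) and with DESeq2 (0.0574). The KRT80 call was lost without 42D replicate 1 (0.161) or 2 (0.0565) or LNCaP replicate 2 (0.0644). KRT10 lost its call with R1881 without 42D replicate 2 (0.0923) or 3 (0.158) or LNCaP replicate 1 (0.143), with RLE scaling (0.0503), without the filter (0.179), with pseudogene counts added (0.0559), with only the libraries compared (0.0544) and with DESeq2 (0.0664), and with DMSO its difference of -0.14 (adjusted p = 0.0912) passed without 42D replicate 1 (0.0353). KRT10-AS1 was lower in 42D (log2 -1.54 with R1881, adjusted p = 4.41e-19, and -1.49 with DMSO, adjusted p = 1.23e-18), and its part in the KRT10 difference was not tested.

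Desmosomes anchor keratin filaments at the cell surface and plakins link them to other structures. Of the 26 desmosome and linker genes listed, 10 were higher and 8 lower of 22 tested in 42D NT3 against LNCaP NT3 with DMSO (median log2 0.05, all genes 0.0027), where 34.8% of all genes were higher and 33.3% lower. ITGB4, a hemidesmosome integrin, had 28.6 CPM in 42D and 1.78 CPM in LNCaP (log2 4.03, adjusted p = 1.47e-17), while DSC2, a desmosomal cadherin, had 89.9 CPM in 42D and 257 CPM in LNCaP (log2 -1.52, adjusted p = 5.38e-25). DSC2 was also lower than in NT3 in C2 (119.9 and 257 CPM, log2 -1.10, adjusted p = 1.55e-15) and in F2 (167 and 257 CPM, log2 -0.63, adjusted p = 1.13e-10). Its partner DSG2 was lower too (log2 -0.71 in C2 and -0.29 in F2), and PLEC, the plakin plectin, was higher by 0.55 in C2 and 0.42 in F2. In C2 2 of 21 tested genes of the list were higher and 3 lower (median -0.03, all genes 0.0036), where 8.53% and 9.63% of all genes were, and in F2 5 were higher and 4 lower (median 0.01, all genes -0.0068), where 8.94% and 7.73% of all genes were. With R1881, 6 were higher and 3 lower of 21 in 42D NT3 (median -0.04, all genes -0.0032), where 13.9% and 11.4% of all genes were, and 3 higher and 3 lower in LNCaP NT3 (median 0.01, all genes -0.011), where 8% and 5.15% of all genes were. In LNCaP NT3 the higher genes were PKP1, DSC1 and DSC3 and the lower ones PPL, PKP4 and JUP. PKP4, a plakophilin-family protein, was lower with R1881 in both (log2 -0.34 in 42D and -0.40 in LNCaP).

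Among 15 genes of other intermediate filaments, VIM, the vimentin of mesenchymal cells, had 1.85 CPM in 42D NT3 and 22.4 CPM in LNCaP NT3 (log2 -3.59, adjusted p = 1.66e-14). NEFL, a neurofilament subunit, had 101 CPM in 42D and 25.8 CPM in LNCaP (log2 1.97, adjusted p = 3.76e-19). In all, 6 were higher and 1 lower of 9 tested in 42D (median log2 0.59), where 68.1% of all genes were called. The count was 4 higher and 1 lower of 8 in C2 (median 0.27; 18.2% of all genes called), and 4 higher and 1 lower of 8 in F2 (median 0.25; 16.7% called). VIM was higher than in NT3 in C2 by 0.57 (adjusted p = 0.0242) and in F2 by 0.92 (adjusted p = 0.000693). With R1881, 0 were higher and 1 lower in 42D NT3 (median -0.13), namely NEFL (log2 -0.65, adjusted p = 0.000118), and 0 of 8 in LNCaP NT3 (median -0.04).

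Of 19 regulators of epithelial state, 6 were higher and 4 lower with R1881 of 15 tested in 42D NT3 (median 0.42; 25.3% of all genes called), and 6 higher and 1 lower in LNCaP NT3 (median 0.22; 13.2% called). Among called genes of the list averaging at least 5 CPM, SNAI2 rose most in 42D, with 11.4 CPM with R1881 and 0.569 CPM with DMSO (log2 4.32, adjusted p = 1.51e-14). KLF5, a Krüppel-like factor, rose most in LNCaP, with 20.5 CPM with R1881 and 4.68 CPM with DMSO (log2 2.12, adjusted p = 1.08e-10). GRHL2, a grainyhead factor of epithelial genes, had 521 CPM with R1881 and 109.7 CPM with DMSO in 42D (log2 2.27, adjusted p = 1.34e-18), and 390.2 CPM with R1881 and 115 CPM with DMSO in LNCaP (log2 1.75, adjusted p = 5.78e-14). ELF3, an epithelial ETS factor, was lower with R1881 in both (log2 -1.36 in 42D and -0.86 in LNCaP). C2 had 0 higher and 4 lower of 15 against NT3 (median -0.13; 18.2% of all genes called), including GRHL2 (log2 -0.31, adjusted p = 0.0109) and EHF (log2 -0.28, adjusted p = 0.000105), and F2 had 1 higher, ESRP2 (log2 0.28, adjusted p = 0.00416), and 0 lower (median 0.08; 16.7% called). In 42D against LNCaP 7 were higher and 5 lower of 16 (median 0.18, with 68.1% of all genes called). KLF5 was among the higher (37.2 CPM in 42D and 4.68 CPM in LNCaP, log2 2.99, adjusted p = 5.36e-19). ESRP1 was among the lower (52.3 CPM in 42D and 129 CPM in LNCaP, log2 -1.30, adjusted p = 2.34e-11).

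The marker lists of prostate cell types were read beside the keratins, against the same shares of all genes called. Against NT3 with DMSO, 0 luminal markers were higher and 6 lower of 13 in C2 (median log2 -0.75), among them KLK3, the gene of prostate-specific antigen (61.3 CPM in C2 and 1368 CPM in NT3), and 2 were higher, KLK2 and KRT8, and 1 lower, KLK3, in F2 (median -0.08). In 42D against LNCaP with DMSO, 68.1% of all genes were called (34.8% higher and 33.3% lower). There 6 luminal markers were higher and 6 lower of 14 (median -0.12). Of 7 basal markers tested, 5 were higher and 0 lower (median 1.16), namely ITGB4, S100A2, COL17A1, LAMB3 and ITGA6. The fit of LNCaP alone tested 5 basal markers, so some passed the filter on low counts only with the 42D libraries. Levels were low for S100A2 (0.532 CPM in 42D and 0.11 CPM in LNCaP) and COL17A1 (1.41 and 0.323 CPM). KRT5, KRT15, KRT17 and TP63 averaged under 1 count. All 5 neuroendocrine markers tested were higher in 42D (median 1.36), among them NCAM1 by 7.29 and SYT4 by 1.17 on the log2 scale. The fit of LNCaP alone tested 3, so some passed the filter on low counts only with the 42D libraries. CHGA, CHGB and INSM1, also among the 8 listed, averaged under 1 count per library in both cell lines. Against NT3, SYT4 was lower in C2 (log2 -5.35) and in F2 (log2 -6.56), and with R1881 1 neuroendocrine marker was higher and 3 lower of 5 in 42D NT3 (median -0.37) and 0 of 3 passed the test in LNCaP NT3 (median 0.01). In C2 1 was higher and 1 lower of 3 (median -0.10), and in F2 0 were higher and 1 lower (median 0.01). Of the basal markers, 0 of 5 were called in C2 (median -0.22), in F2 (median 0.13) and with R1881 in LNCaP NT3 (median -0.05), and with R1881 in 42D NT3 1 of 7 was lower, ITGA6 (median -0.25). With R1881 7 luminal markers were higher and 3 lower of 14 in 42D NT3 (median 0.19) and 6 higher and 1 lower of 13 in LNCaP NT3 (median 0.14). KRT8 and KRT18 belong to the luminal list, so that list is no separate reading of them, and the part of the other markers in the keratin differences was not tested. Of the 12 fibroblast and mesenchymal markers, 3 were higher and 4 lower in 42D against LNCaP (median -0.30), 1 and 1 in C2 (median -0.06), 1 and 2 in F2 (median 0.10), 1 and 1 with R1881 in 42D NT3 (median -0.26), and 0 and 1 with R1881 in LNCaP NT3 (median -0.37). Of 8 leukocyte markers, HLA-DRA alone was tested in 42D against LNCaP (0.963 CPM in 42D and 0.243 CPM in LNCaP). The fit of LNCaP alone tested 0, so HLA-DRA passed the filter on low counts through the 42D libraries, where it was higher. The summed level of the 8 markers was 1.09 to 2.53 CPM in 42D and 0.321 to 1.13 CPM in LNCaP.

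The genes whose group means were most like a member's were named by Pearson's r of log2 group means, over the 12052 genes that reached 5 CPM in a group. Over 12 groups KRT8 was most like THYN1 (r = 0.953), LRIG1 (0.946) and KDM4B (0.946), and KRT18 most like NUDT9 (0.971), ACAD8 and INTS6. KRT80 was most like SLC35F6 (0.956), FAM86EP and RELL1, and KRT10 most like ANKRD42 (0.964), SELENOP and MAVS. Over the 8 groups of LNCaP alone other genes led, MAPK7 for KRT8 (0.970), TMEM79 for KRT18 (0.982), KCNG1 for KRT80 (0.989) and PACC1 for KRT10 (0.958). KRT8 and KRT18 had r = 0.833 with each other over 12 groups and 0.952 over 8, and KRT18 and KRT80 had -0.723 and -0.60. The points share cell lines and libraries, and KRT19 did not reach 5 CPM in any group. KRT80 reached it only in 42D NT3 with DMSO (5.03 CPM). Its highest LNCaP group, C2 with DMSO, averaged 4.61 CPM, so its r over the 8 LNCaP groups used levels below that cut. Genes were named for having the highest r among all genes compared, so a high r was expected from the choice itself.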

How the data were processed

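Poly(A) RNA was sequenced as 51 base paired reads with a stranded kit, per the labels' protocols. The authors deposited 1 table of raw read counts per gene for all 36 libraries (61806 rows, of which 1 unnamed row held 0 counts). Trimming with cutadapt, alignment with HISAT2 2.1.0 and the build hg38 are named in the submitters' processing notes. The counter, its strand setting and the annotation release are not given in the sources used here. From these counts, TMM-scaled CPM were computed and edgeR 4.0.16 (R 4.3.3) quasi-likelihood F tests were fitted after filterByExpr, over the 24 LNCaP libraries (15519 genes), the 12 of 42D (15403 genes) or all 36 (16564 genes), with Benjamini-Hochberg adjustment over all genes tested and a threshold of 0.05. Groups came from the sample labels, and the script was tested on simulated data. Alternatives were no filter, RLE scaling, adding pseudogene counts, fitting only the libraries compared, a replicate term, DESeq2 1.42.0, leaving out 2 libraries of low mitochondrial share, and leaving out each library. Members and lists were chosen with earlier results of these data known. From each list, a rule picked up to 2 called genes per direction with the largest change and at least 5 CPM on average. Not all genes so picked are named. Other list genes named beside counts of up to 5 (PKP1, DSC1, DSC3, PPL, S100A2, COL17A1, LAMB3 and HLA-DRA) were chosen after their values were seen. Intervals and floors of 3 counts cover counting error only.

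Same-numbered libraries deviated together, with every pair's correlation above 0.1, in F2 with R1881 against DMSO (0.132 to 0.247), 42D sgT33-5 with R1881 against DMSO (0.117 to 0.188), F2 against NT3 with DMSO (0.113 to 0.212) and LNCaP sgT33-5 against NT3 with R1881 (0.112 to 0.238), and these comparisons are taken as paired from the data. The block changed 3 calls there: KRT18 with R1881 in F2 (adjusted p = 0.0441), KRT80 with R1881 in 42D sgT33-5 (0.0143) and KRT18 in LNCaP sgT33-5 with R1881 (0.00973).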

Additional observations from a re-analysis of the deposited data

Results flagged for a closer look

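The R1881 response of KRT8 differed between C2 and NT3 of LNCaP by -0.64 on the log2 scale in the test of the difference itself (edgeR, adjusted p = 0.00225). KRT8 differed by -0.01 between R1881 and DMSO in C2 and by 0.62 in NT3.

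In 42D the R1881 response of KRT8 was 1.11 in sgT33-5 and 0.78 in NT3, a difference of 0.34 (edgeR, adjusted p = 0.0422), which 9 of 12 fits that left out 1 library did not call.

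With R1881, the difference between sgT33-5 and NT3 was higher in 42D than in LNCaP by 0.44 for KRT8 (edgeR, adjusted p = 0.00992) and by 0.27 for KRT18 (edgeR, adjusted p = 0.0113). In neither cell line did the difference between sgT33-5 and NT3 itself pass in edgeR's filtered fit with all libraries and no replicate block. In edgeR's fit without the filter, KRT8 with R1881 passed in LNCaP (adjusted p = 0.00294) and in 42D (0.00195). Without LNCaP NT3 R1881 replicate 3, KRT8 (0.0217) and KRT18 (0.0304) passed in LNCaP. With the block, KRT18 passed in LNCaP with R1881 (adjusted p = 0.00973) and KRT8 in 42D with R1881 (adjusted p = 0.00431).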

How the results depend on the processing

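Of 125 tests of the 5 keratins, 38 passed, and 22 of those passed under every alternative. Of the 87 that did not pass, 74 passed under none. No called value reversed, and 61 of 1293 uncalled values changed sign while uncalled. Of 108 CPM levels 2 moved by more than 1 SD without TMM. The replicate block also called, where the numbers were not taken as paired, KRT19 with R1881 in C2 (adjusted p = 0.0409), KRT80 with R1881 in 42D NT3 (0.000528), KRT8 in 42D sgT33-5 against NT3 with R1881 (0.00431) and DMSO (0.0215), KRT18 in F2 against NT3 with R1881 (0.0374), and the KRT18 response in C2 (0.0127) and in 42D sgT33-5 (0.0217) against NT3. The cause of the changes below was not tested.

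The number of called keratins with R1881 became 2 in C2 with the replicate block (1 without it) and 0 in F2 when only the libraries compared were fitted (3 in the fit over all LNCaP libraries). For F2 against NT3 with DMSO it became 1 without the 2 libraries of low mitochondrial share. For LNCaP sgT33-5 against NT3 with R1881 it became 1 without the filter, with the replicate block and with DESeq2, and for F2 against NT3 with R1881 it became 1 with the block. For 42D sgT33-5 against NT3 it became 1 without the filter and 1 with the block under either treatment, and 1 with DESeq2 under R1881. For the difference in R1881 response it became 2 in C2 with the block and 2 with DESeq2, 1 in F2 without the filter, and 2 in 42D sgT33-5 with the block. For the sgT33-5 effect between cell lines with R1881 it became 1 without the filter and 0 with only the libraries compared.

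Leaving out 1 library gave a range of 0 to 1 with R1881 in C2 and 0 to 3 in F2, 1 to 2 for C2 and 0 to 1 for F2 against NT3 with DMSO, 0 to 2 for LNCaP sgT33-5 and 0 to 1 for F2 against NT3 with R1881, 2 to 4 for 42D against LNCaP with DMSO, 0 to 1 for the R1881 response of 42D sgT33-5 and 0 to 2 for the sgT33-5 effect between cell lines with R1881. KRT19 and KRT80 had few counts per library, so depth limits their precision.

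Over all genes, the replicate block gave 774 called against 217 without it for LNCaP sgT33-5 against NT3 with DMSO, 2985 against 1936 without it for R1881 in LNCaP sgT33-5, 1398 against 879 in C2, 3345 against 2087 for F2 with R1881, 665 against 174 and 331 against 79 for 42D sgT33-5 with DMSO and R1881, 326 against 107 for the C2 response, 196 against 19 for the 42D sgT33-5 response, 1033 against 638 for the response between cell lines, and 355 against 132 and 543 against 218 for the sgT33-5 effect with DMSO and R1881. For the responses of LNCaP sgT33-5 and F2 it called 22 and 17 genes, and no filter 26 and 19, against 0. Without the filter the counts were 391 (LNCaP sgT33-5, DMSO), 743 (R1881), 438 and 222 (42D), 191 (C2 response), 168 (42D response), and 459 and 365 (sgT33-5 effect). Fitting only the libraries compared gave 194 for LNCaP sgT33-5 and 1178 for F2 with R1881 and 140 for the sgT33-5 effect with R1881. DESeq2 gave 70 for the 42D response and 240 for the sgT33-5 effect with DMSO. Leaving out 1 library gave 1841 to 2917 for C2 against NT3 with DMSO (2818 with all), 1524 to 2685 for F2 (2587), 106 to 170 and 188 to 497 for LNCaP sgT33-5 with DMSO and R1881 (217 and 472), 66 to 244 and 43 to 74 for 42D sgT33-5 (174 and 79), 64 to 115 for the C2 response (107), 0 to 3 for the F2 response (0), 5 to 92 for the 42D sgT33-5 response (19), and 61 to 188 and 135 to 246 for the sgT33-5 effect (132 and 218). Over all groups of a cell line, including those of comparisons not taken as paired, libraries were compared by replicate number. Each library correlated more, on average, with libraries of its own number in other groups than with those of any other number. This held in 24 of 24 LNCaP and 12 of 12 42D libraries, a hint from the data and not from the design.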

Other observations

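The table held 45 other keratin genes. Of these, 16 had 0 counts in all libraries and 38 stayed under 10 counts in every library, and KRT36, KRT73 and KRT75 passed the filter on low counts in at least 1 fit. KRT36, a hair type I keratin, averaged 5.03 CPM in 42D NT3 with DMSO (65 to 86 counts per library). LNCaP NT3 with DMSO averaged 0.171 CPM (1 to 4 counts per library). KRT36 thus passed the filter through the 42D groups alone. R1881 lowered it in both 42D lines, to 2.05 CPM with R1881, against 5.03 CPM with DMSO in NT3 (log2 -1.28, edgeR adjusted p = 0.00303), and to 1.35 CPM with R1881, against 3.10 CPM with DMSO in sgT33-5 (log2 -1.18, edgeR adjusted p = 0.0144).

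KRT73, a type II keratin of the hair follicle's inner root sheath, had 11 to 17 counts per library in 42D sgT33-5 with R1881 and 8 to 14 in 42D NT3 with R1881, against 0 counts in all 6 42D libraries with DMSO. In 42D it thus passed the filter on low counts through the R1881 groups alone. In LNCaP, KRT73 summed to 9 counts with R1881 and 1 with DMSO in NT3, and to 9 and 0 in sgT33-5. The sums were 3 and 0 in C2, and 4 and 0 in F2. The 42D averages of 0.932 CPM in sgT33-5 and 0.755 CPM in NT3 with R1881 were at least 5.14-fold and 3.95-fold higher than the limit of 3 counts per library. KRT75, a hair follicle type II keratin, averaged 1.13 CPM in F2 with DMSO (16 to 29 counts per library). With DMSO it averaged 0.192 CPM in LNCaP NT3 (1 to 6 counts) and 0.344 CPM in C2 (4 to 7 counts). In LNCaP, KRT75 thus passed the filter on low counts mostly through F2.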
